A study of Rattus norvegicus with 12 samples.

Results

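Cytosolic ribosomal proteins are the proteins that, with ribosomal RNA, make up the 2 subunits of the ribosomes that translate mRNAs of the nuclear genome. Their genes were taken here by name from the count table: names of Rpl or Rps followed by a number, Rplp0, Rplp1, Rplp2 and Rpsa, leaving out the S6 kinase genes, with 10 or more raw counts in at least 3 of the 12 libraries. Of 28727 named rows, 111 fitted the names and 93 of these passed the count rule. All 93 were also among the 14669 genes that passed edgeR's filter and were tested. By name, the 93 members were 29 standard proteins of the small subunit, 42 standard proteins of the large subunit, 5 paralogs (Rpl3l, Rpl7l1, Rpl22l1, Rpl36al and Rps27l), 8 names with -ps, which marks pseudogenes, 8 other names with an added l and number, and Rps19bp1, which encodes a protein that binds a ribosomal protein and is not one itself. At the border of the count rule, Rpl37-ps1 reached 10 counts in 3 libraries and was kept, whereas Rpl38 and Rpl39l reached it in 1 library each and were left out.

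The RNAseq experiment used INS-1 832/13, an insulin-secreting line from a rat insulinoma. Cells were given adenovirus for GFP as the control or for mCherry-tagged mouse ChREBPβ, a shorter form of the transcription factor ChREBP that responds to glucose and is encoded by Mlxipl, and were kept at 2 mM or 11 mM glucose for 48 h. Each of the 4 groups (GFP at 2 mM, GFP at 11 mM, ChREBPβ at 2 mM and ChREBPβ at 11 mM) has 3 libraries, labelled a, b and c. The study describes averages of this experiment as those of 3 independent experiments, while the labels do not say which libraries were made together. Total counts on named genes ran from 25754488 to 32938546 for GFP at 2 mM, from 36219167 to 46654823 for GFP at 11 mM, from 28595982 to 57726412 for ChREBPβ at 2 mM and from 57088794 to 60531215 for ChREBPβ at 11 mM. SE marks standard errors, on the log2 scale. The promoter that drives the viral genes is not given in the sources used here. Levels are counts-per-million values (CPM) scaled by edgeR's TMM factors, which express a change relative to the bulk of genes. They are not divided by transcript length, so levels of different genes are not compared.

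Counts of ChREBP itself were checked first, for Mlxipl and for a further entry that the table names ChREBPb. Mlxipl was at 240.3, 252 and 277 CPM with GFP and 203, 212 and 199 CPM in the libraries labelled ChREBPβ at 2 mM, and 202, 212 and 207 CPM against 201, 181 and 183 CPM at 11 mM. ChREBPb was at 73.2, 78 and 82.2 CPM with GFP and 90.7, 89.6 and 90.1 CPM with the ChREBPβ label at 2 mM, and at 64.7, 73.3 and 66.1 CPM against 98.2, 84.3 and 81.4 CPM at 11 mM. It was higher with the ChREBPβ label without overlap at both glucose levels, with log2 fold changes of 0.21 (edgeR, adjusted p = 0.00841; SE 0.06) at 2 mM, under the 1.2-fold minimum used here, and 0.37 (edgeR, adjusted p = 6.9e-05; SE 0.06) at 11 mM. Which sequence this entry counts is not given in the sources used here. Mlxipl was called lower at 2 mM (-0.33) and was not called at 11 mM (-0.14), so ChREBPβ in the name of a group stands for the label of its libraries. Pklr, a target gene of ChREBP, had log2 fold changes of 1.69 at 2 mM and 1.08 at 11 mM. Txnip, another target gene, was at 26.8, 24.3 and 27.7 CPM with GFP and 450, 472 and 448 CPM with the ChREBPβ label at 2 mM. At 11 mM its levels were 334, 347 and 370 CPM against 662, 659 and 677 CPM.

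A ribosome is assembled from ribosomal RNA and one set of these proteins, so their mRNAs are among the most abundant of a growing cell and tend to be controlled together. In vertebrates the mRNAs of ribosomal proteins begin with a 5′ terminal oligopyrimidine tract (TOP), a run of C and T at the start of transcription, through which mTORC1 and Larp1 control their translation. In β-cells, ribosomes sustain the synthesis of proinsulin, the main secreted product.

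RefSeq promoters of the GRCr8 assembly, matched by symbol, were read for runs of pyrimidines near the annotated start. Of the 93 members, 65 had a single entry. Counted on the sense strand from 40 bases before the annotated start to 20 bases from it, a run of at least 8 C or T was present in 46 of 65 members (70.8%) and in 7987 of 33469 promoters of all genes (23.9%). Among standard proteins it was 43 of 56 (76.8%), and among members with other names 3 of 9 (33.3%). The run was counted at any place in this window, so these are not shares of genes with a TOP tract. In Rpl7a, a run of 24 bases began at -30 and lay wholly before the annotated start. In Rpl39, a run of 9 bases began at 12 and lay wholly after the start. How many of the 46 runs included the annotated start was not counted. The E-box CACGTG, read on both strands of the 300 bases from 250 before the start to 50 after it, was present in 4 of 65 members (6.15%; Rpl13a, Rps2, Rps28 and Rpl14) and in 6.42% of all promoters. The carbohydrate response element was matched in 0 of the 65 members and in 25 of all promoters (0.0747%). A match describes the letters of a window and is not a site shown to be used. The windows of 6 members that the results turn on are shown 5′ to 3′ on the sense strand, with their longest pyrimidine run in capitals: 3 standard proteins whose counts rose (Rplp0, Rps2 and Rps18), Rps24, which showed no change, and the paralogs Rpl7l1, which rose, and Rpl3l, which fell. They lie in GRCr8 at chr12:46718371-46718430 (minus strand), chr10:14251808-14251867 (plus strand), chr20:4933705-4933764 (plus strand), chr16:96477-96536 (plus strand), chr9:21695678-21695737 (plus strand) and chr10:14258406-14258465 (plus strand), each spanning the annotated start of its gene.
Rplp0: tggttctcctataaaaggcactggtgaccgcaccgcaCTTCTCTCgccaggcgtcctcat
Rps2: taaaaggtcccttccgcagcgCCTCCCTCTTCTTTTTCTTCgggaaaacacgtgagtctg
Rps18: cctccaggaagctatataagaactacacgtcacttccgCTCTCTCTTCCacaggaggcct
Rps24: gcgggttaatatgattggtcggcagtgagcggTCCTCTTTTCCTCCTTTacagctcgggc
Rpl7l1: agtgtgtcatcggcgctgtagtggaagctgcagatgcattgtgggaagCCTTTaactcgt
Rpl3l: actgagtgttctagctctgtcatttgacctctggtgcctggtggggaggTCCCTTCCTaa

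The longest run was 8 bases in Rplp0, 20 in Rps2, 11 in Rps18 and 17 in Rps24, and it included or touched the annotated start in each. In Rpl7l1 it had 5 bases and in Rpl3l, 9 bases, and both lay after the start.

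Some standard proteins are hardly counted in this table. Rpl10a, Rpl22 and Rpl23a had 0 counts in every library, where counting error alone would allow up to 3 counts a library, and Rpl38 had 0 to 11 counts. Rps13 and Rps26 had no row in the table used. Among the members, the mean over the 12 libraries was 6.1 CPM for Rps6, 2.93 for Rplp2, 0.618 for Rps19 and 0.544 for Rpl35a. In all, 10 of 75 standard names lay under 30 CPM and 65 at or above it. The RefSeq table of GRCr8 holds 1192 entries with names of this kind, of which 883 are called pseudogenes, with a median of 11.5 -ps entries for the names under 30 CPM and of 11 for the others. Reads shared with near-identical copies could be split or dropped by the authors' counting, which is not described in the sources used here, so every member's level is uncertain in this respect. Whether such copies account for the low counts was not tested.

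Summed over the 93 members, the share of all counts was 3.61%, 3.73% and 3.83% in GFP cells at 2 mM (replicates a, b and c), then 4.43%, 3.91% and 4.40% once glucose was 11 mM. Libraries labelled ChREBPβ gave 4.64%, 4.70% and 4.76% at 2 mM, then 4.55%, 5.003% and 5.09% at 11 mM. The group means were 3.73% ± 0.11, 4.25% ± 0.29, 4.70% ± 0.06 and 4.88% ± 0.29 (SD, n = 3), so that the mean share was 1.26 times as high with the ChREBPβ label as with GFP at 2 mM glucose. At each glucose level the 3 libraries labelled ChREBPβ lay above the 3 of GFP, while at 11 mM the gap was only that between 4.43% and 4.55%. The libraries labelled ChREBPβ at 2 and 11 mM overlapped.

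**Figure D1:**
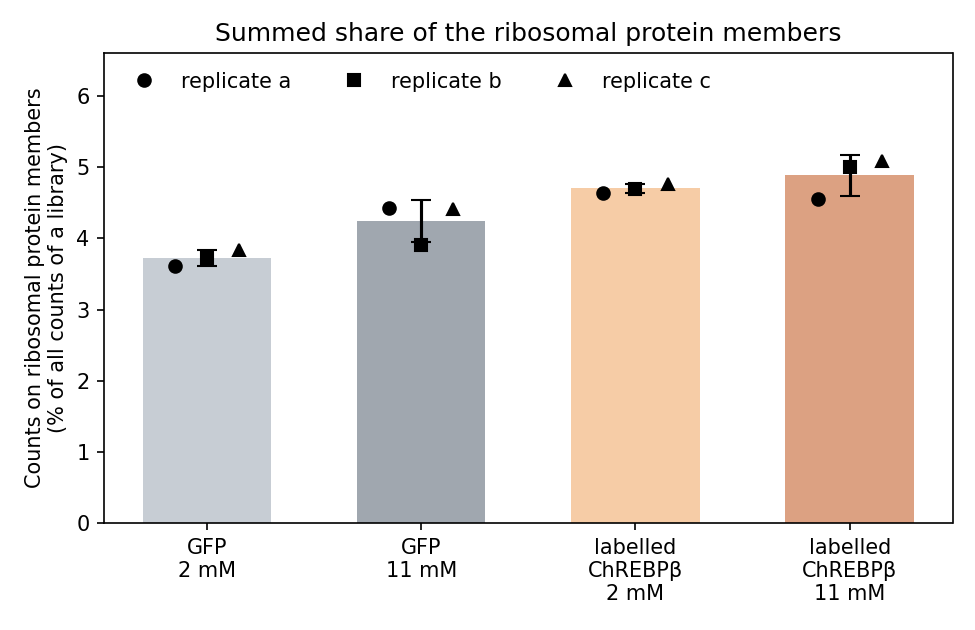
Summed share of the 93 ribosomal protein members in the counts of each library, in percent. Bars are group means, error bars the SD of 3 libraries and symbols the single libraries; the 3 libraries of GFP at 2 mM lie lowest, at 3.61% to 3.83%.

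In the plot of shares, replicate b of GFP at 11 mM and replicate a of ChREBPβ at 11 mM stand apart from the rest of their groups. Replicate b of GFP at 11 mM was the lowest of its group for 82 of the 93 members, and replicate a of ChREBPβ at 11 mM for 85. Replicate a of GFP at 2 mM was the lowest for 71, and replicate a of ChREBPβ at 2 mM for 66. The share rose from a to b to c in 3 of the 4 groups, all but GFP at 11 mM. Members move together from library to library, and single libraries decide many calls; several counts are therefore also given without single libraries. Among the libraries labelled ChREBPβ at 2 mM, shares were close although totals were not: replicate a had 28595982 counts and a share of 4.64%, against 57726412 and 4.70% in replicate b.

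The first comparison set the ChREBPβ label against GFP at low glucose. At 2 mM glucose, 72 of the 93 members were called higher in the libraries labelled ChREBPβ than with GFP, and 1, Rpl3l, was called lower (called means a Benjamini-Hochberg adjusted p under 0.05 in edgeR's quasi-likelihood test and a change of at least 1.2-fold). Of all 14669 genes tested, 21% were called higher and 23.2% lower. The members' median log2 fold change was 0.40, or 1.32-fold, against -0.02 over all genes. For 77 members all 3 libraries labelled ChREBPβ lay above the 3 of GFP, as for 31.2% of all genes. The changes were alike in size, with a middle range of 0.31 to 0.51 on the log2 scale. Small and large subunit proteins moved to a similar extent, with 25 of 29 and 35 of 42 called higher and medians of 0.43 and 0.40. In bulk RNA, a change in each cell and a change in the mix of cells cannot be told apart.

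The counts of calls depend on the scaling, as the libraries labelled ChREBPβ have the lower TMM factors. When CPM was scaled by library totals alone, the median of all genes was -0.12 at 2 mM and -0.10 at 11 mM. The members' median minus that of all genes was 0.42 at 2 mM and 0.31 at 11 mM with TMM factors. With library totals it was 0.42 and 0.31. A change of scaling moves all genes of a library alike, so this agreement was fixed in advance and tests nothing. At 2 mM, library totals gave 58 members called higher and 1 lower. Across the 5 scalings tried, 3 members changed the sign of their log2 fold change at 2 mM (Rpl36al, Rpl5l1 and Rps6) and 2 at 11 mM (Rpl35al1 and Rps24), none of them called.

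In the small subunit, Rps18 had the largest increase at 2 mM among standard proteins with a mean of at least 5 CPM. It was at 762, 817 and 800.1 CPM with GFP and at 1269, 1283 and 1326 CPM in the libraries labelled ChREBPβ, with no overlap. Its log2 fold change was 0.70 (edgeR, adjusted p = 1.63e-08; SE 0.07). Rps2, a protein of the mRNA entry channel, rose from 1630 ± 39.7 to 2400 ± 62 CPM (± SD, n = 3), or on the log2 scale by 0.56 (edgeR, adjusted p = 1.11e-08; SE 0.05). Rpsa, also known as the laminin receptor, was at 465, 480.4 and 522 CPM with GFP and 733, 746 and 768 CPM with the ChREBPβ label, a change of 0.61 on the log2 scale. Rps3, which also has a role in DNA repair, and Rps14, which lies on the platform of the subunit, rose by 0.57 and 0.50. Rps27a, made as a fusion with ubiquitin, rose by 0.42.

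Rps24 did not follow the other small subunit proteins. Its level was 757, 782 and 792 CPM with GFP and 762, 771 and 761 CPM with the ChREBPβ label at 2 mM, and 839, 738 and 819.9 CPM against 726, 778 and 881 CPM at 11 mM. All 4 groups overlapped. The log2 fold change was -0.02 (edgeR, adjusted p = 0.743; SE 0.06) at 2 mM and -0.01 (edgeR, adjusted p = 0.927; SE 0.06) at 11 mM. The longest pyrimidine run of its window had 17 bases. Among standard members, a run of at least 8 was present in 34 of 46 called higher at 2 mM (73.9%). Of those not called it was present in 9 of 10 (90%). Whether such a run goes with a change in counts was not tested. Rps24 was singled out after its values were seen. The other standard small subunit proteins not called at 2 mM were Rps6, Rps7 and Rps29. Rps6, the target of the S6 kinases, had 4.04, 5.98 and 8.3 CPM in GFP cells at 2 mM, so its spread was wide, and its log2 fold change was 0.08 (SE 0.17). Rps19, which is mutated in Diamond-Blackfan anemia, was called higher at 2 mM, by 1.10 (SE 0.36), but at 0.367, 0.35 and 0.449 CPM with GFP and 0.43, 0.891 and 1.07 CPM with the ChREBPβ label its groups overlapped, and the call was lost without replicate c of ChREBPβ at 2 mM, where the value was 0.85.

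In the large subunit, the acidic stalk, where translation factors dock, is made of Rplp0, Rplp1 and Rplp2. Rplp0, which anchors the stalk, was at 2283, 2378 and 2594 CPM with GFP and 3369, 3433 and 3544 CPM with the ChREBPβ label at 2 mM, with no overlap. Its log2 fold change was 0.51 (edgeR, adjusted p = 7.23e-08; SE 0.05). Rplp1 rose by 0.45 (edgeR adjusted p = 1.99e-06). Rplp2 had only 2.2, 2.1 and 3.56 CPM with GFP at 2 mM and 2.72, 3.28 and 2.95 with the ChREBPβ label, overlapping values with a log2 fold change of 0.20 that was not called. Rpl13a, known from the GAIT complex of translational control, was at 835, 863 and 867 CPM with GFP and 1259, 1266 and 1345 with the ChREBPβ label, a log2 fold change of 0.59 (edgeR, adjusted p = 1.03e-08; SE 0.05). Rpl3, next to the peptidyl transferase centre, rose by 0.51 and Rpl6 by 0.47.

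Rpl5 and Rpl11, which bind 5S RNA, and Rpl23 can also bind Mdm2, the ubiquitin ligase of p53. Rpl5 was at 741, 763 and 753 CPM with GFP and 887, 916 and 901 with the ChREBPβ label at 2 mM. The groups did not overlap, but the change of 0.26 (edgeR, adjusted p = 4.04e-05; SE 0.04) was just under the minimum fold change. Rpl11 rose by 0.40 and Rpl23 by 0.51. Rpl10, which joins the subunit last, had a log2 fold change of 0.20 (edgeR, adjusted p = 0.000743; SE 0.05), also under the minimum. The other standard large subunit proteins not called at 2 mM were Rpl7a, Rpl26, Rpl35a, Rpl41 and Rplp2, with log2 fold changes of 0.12 to 0.26. Without replicate c of GFP at 2 mM, Rplp2 (0.49) and Rpl7a (0.47) were called higher.

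**Figure D2:**
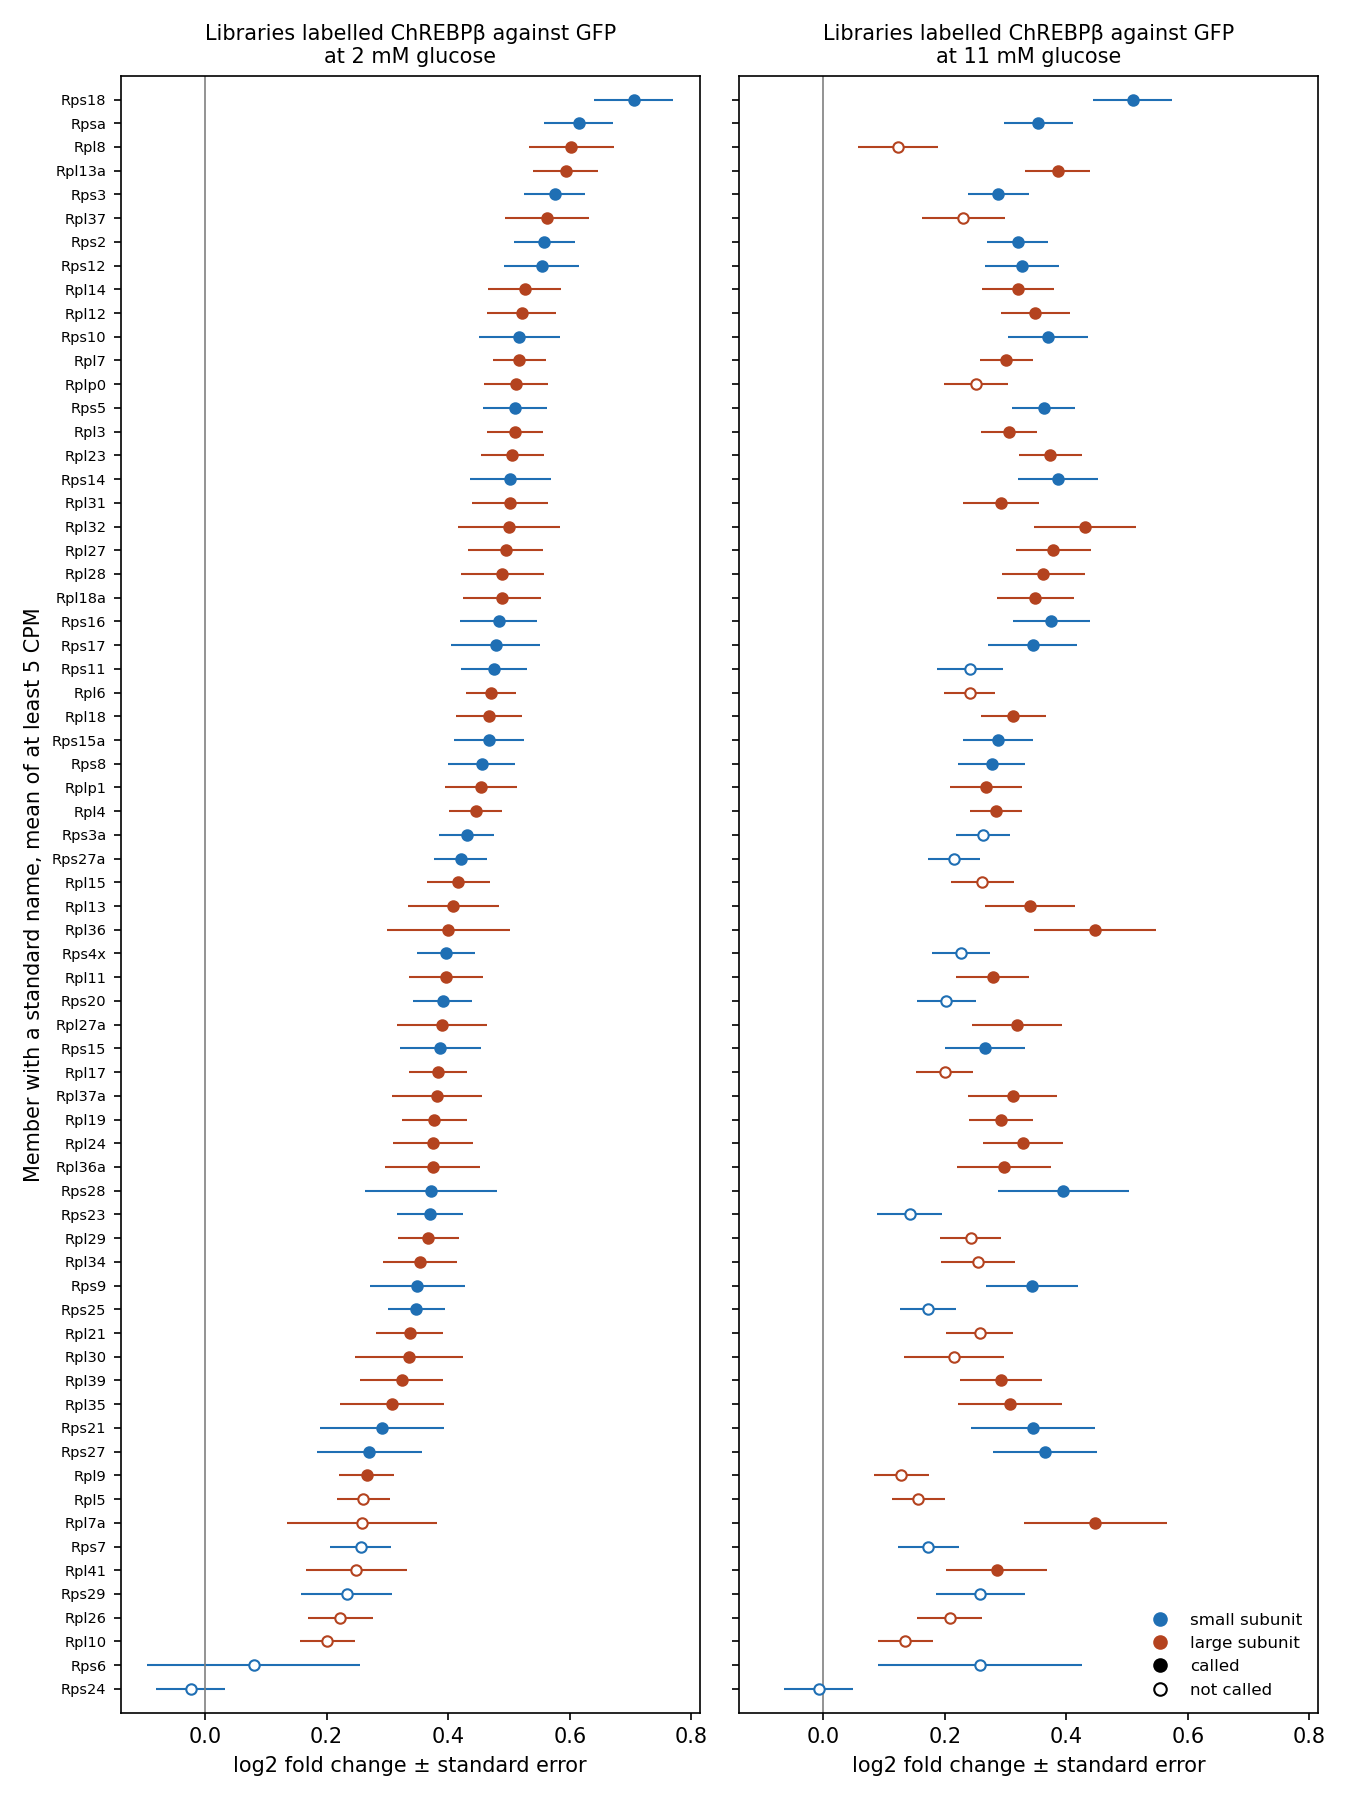
Log2 fold change with its standard error of the 68 standard members with a mean of at least 5 CPM, libraries labelled ChREBPβ against GFP, at 2 mM (left) and 11 mM glucose (right), ordered by the value at 2 mM. Filled symbols are called; Rps18 has the highest value in both panels, at 0.70 and 0.51, and Rps24 the lowest, at -0.02 and -0.01.

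The plot of fold changes by member shows smaller values at 11 mM. In this comparison of the viruses at high glucose, 49 of the 93 members were called higher in the libraries labelled ChREBPβ and 1, Rpl3l, lower, against 14.3% and 19.1% of all genes tested. The median log2 fold change was 0.29, against -0.02 over all genes. For 71 members the 3 libraries labelled ChREBPβ lay above the 3 of GFP, as for 26.4% of all genes. Many values lay near the minimum fold change, and with an adjusted p under 0.05 alone 74 members were higher and 1 lower. Without replicate b of GFP at 11 mM, 22 members were called higher, without replicate a of ChREBPβ at 11 mM 63, and without both 46. With library totals it was 20.

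Rps18 again changed most among the standard proteins of at least 5 CPM. It was at 1012, 805 and 984 CPM with GFP and 1226, 1369 and 1392 CPM with the ChREBPβ label at 11 mM, a log2 fold change of 0.51 (edgeR, adjusted p = 2.04e-06; SE 0.07). Rpl7a, with 9.84, 7.95 and 9.52 CPM with GFP, rose by 0.45 (edgeR adjusted p = 0.00374). Rpl13a rose by 0.39, Rpl23 by 0.37, Rpsa by 0.35, Rps2 by 0.32 and Rpl3 by 0.31. Rpl11 rose by 0.28, a call lost when replicate b of GFP at 11 mM (0.21) or replicate c of ChREBPβ at 11 mM (0.22) was dropped. Rplp0 was at 3234, 2970 and 3276 CPM with GFP and 3479, 3896 and 3914 CPM with the ChREBPβ label. Its groups did not overlap, and its log2 fold change of 0.25 (edgeR, adjusted p = 0.000514; SE 0.05) was under the minimum. Rpl8, of the large subunit core, was at 34.4, 33 and 35.3 CPM with GFP and 34.9, 39.1 and 37.8 CPM with the label, where the groups overlapped, with a log2 fold change of 0.12 (edgeR, adjusted p = 0.126; SE 0.07).

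The third comparison asked what glucose does in control cells, which share the GFP libraries at 2 mM with the first. In GFP-treated cells, 21 of 93 members were called higher at 11 than at 2 mM glucose and 0 lower, against 10.2% and 10% of all genes tested. At an unadjusted p under 0.05 in edgeR, 59 members were higher and 1 lower, against 22.2% and 20.7% of all genes, and DESeq2 called 20 higher and 1 lower. The median log2 fold change was 0.21, against -0.00241 over all genes. For 46 members the 3 libraries at 11 mM lay above the 3 at 2 mM, as for 21.8% of all genes. The count rested on single libraries: without replicate b at 11 mM, the library with a share of 3.91%, 50 members were called higher, and without replicate a at 11 mM, 13.

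Among members of at least 5 CPM, Rpl6-ps1, Rpl31l4 and Rpl8 had the largest increases with glucose. This order rests on replicate c of GFP at 2 mM, without which the values were 0.36, 0.41 and 0.40, and that of Rplp0 was 0.44. Rpl8 was at 26.2, 25.9 and 21.5 CPM at 2 mM and 34.4, 33 and 35.3 CPM at 11 mM, with no overlap, a log2 fold change of 0.48 (edgeR, adjusted p = 2.19e-05; SE 0.07). Rplp0 rose from 2418 ± 159 to 3160 ± 166 CPM (SD, n = 3), by 0.39 (edgeR, adjusted p = 1.18e-05; SE 0.05). Rpsa rose by 0.36, Rps3 by 0.33, Rpl37 by 0.32, Rps2 by 0.30 and Rpl6 by 0.29. Calls were lost for Rpl37 without replicate c of GFP at 2 mM (0.25), for Rps2 without replicate a of GFP at 11 mM (0.26) and for Rpl6 without replicate a of GFP at 2 mM (0.26) or with library totals (0.25). Rps18 had a value of 0.24 and Rpl13a of 0.23, both under the minimum fold change. Rpl10, Rpl41, Rps21 and Rps27 had values of 0.03, 0.01, 0.01 and 0.01, whose sign depended on the scaling.

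In the libraries labelled ChREBPβ, raising glucose from 2 to 11 mM gave 0 calls in either direction among the 93 members, against 0.988% of all genes higher and 2.88% lower. At an unadjusted p under 0.05 in edgeR, 10 members were higher and 0 lower, against 9.3% and 11.5% of all genes, and DESeq2 also called 0. The median log2 fold change was 0.07, against 0.00303 over all genes. Without replicate a of ChREBPβ at 11 mM it was 0.13, and without replicate c of that group 0.04. Rplp0 was at 3369, 3433 and 3544 CPM at 2 mM and 3479, 3896 and 3914 CPM at 11 mM, overlapping values with a log2 fold change of 0.13 (edgeR, adjusted p = 0.171; SE 0.05). Rps27l had the smallest adjusted p, with a log2 fold change of 0.20 (edgeR, adjusted p = 0.029; SE 0.05), under the minimum.

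Whether the change with the ChREBPβ label differed between glucose levels was tested as an interaction. Here 5 members had a lower value at 11 than at 2 mM and 0 a higher one, against 4.74% and 1.56% of all genes, so the share of members, 5.38%, was near that of all genes. At an unadjusted p under 0.05 in edgeR, 33 members were lower and 0 higher, against 13% and 7.96% of all genes, and DESeq2 called 5 and 0. The median difference was -0.13 on the log2 scale, against -0.00642 over all genes. The 5 were Rps3, Rpl8, Rpl37, Rpl7l1 and Rpl31l4. For Rps3 the change with the ChREBPβ label was 0.57 at 2 mM and 0.29 at 11 mM, a difference of -0.29 (edgeR, adjusted p = 0.0158; SE 0.07), and its call was lost without 4 of the 12 single libraries (-0.27 to -0.25) and with upper quartile factors (-0.26). Rpl8 had changes of 0.60 and 0.12 and a difference of -0.48 (edgeR, adjusted p = 0.00318; SE 0.10). Its levels in the order of the groups were 24.5, 34.2, 37.3 and 37.3 CPM, so the GFP libraries at 2 mM were the low ones. Rpl37 and Rpl31l4 had differences of -0.33 and -0.58, and their calls were lost on leaving out 8 and 9 of the 12 single libraries, where the differences were -0.35 to -0.26 and -0.61 to -0.50. Rpl7l1, at -0.28, lost its call without 2 of the 12.

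The count of 5 moved with single libraries. Leaving out replicate b of GFP at 11 mM gave 16, and leaving out a or c of that group gave 2. It was 8 when replicate c of GFP at 2 mM was dropped, 3 when b or c of ChREBPβ at 2 mM was, and 1 when a of ChREBPβ at 11 mM was. With upper quartile factors it was 2, Rpl8 and Rpl31l4. Rpl8 kept its call without each of the 12 libraries.

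Paralogs of ribosomal proteins are encoded by separate genes and can take the place of a standard protein. Of 9 listed, 5 were members, 3 were called higher at 2 mM and 1 lower (20%), against 21% and 23.2% of all genes. Rpl3l, which replaces Rpl3 in the ribosomes of heart and skeletal muscle, had 1.76, 2.94 and 2.5 CPM in GFP cells at 2 mM and 1.5, 1.85 and 1.37 CPM in those at 11 mM. The libraries labelled ChREBPβ had 1.32, 1.07 and 0.645 CPM at 2 mM and 0.853, 0.702 and 0.75 CPM at 11 mM. At each glucose level the groups did not overlap, and the libraries labelled ChREBPβ were the low ones. The log2 fold change was -1.31 (edgeR, adjusted p = 0.000192; SE 0.25) at low glucose, and at high glucose -1.02 (edgeR, adjusted p = 0.0025; SE 0.26). Within libraries, the log2 ratio of Rpl3l to Rpl3 counts differed by -1.79 at 2 mM and by -1.34 at 11 mM (exact two-sided permutation test, n = 3 in each group, p = 0.1 in each case, the smallest that 3 against 3 libraries allow). With glucose in GFP-treated cells Rpl3l had a value of -0.63 (edgeR adjusted p = 0.0509), not called. It was the only 1 of the 5 paralogs with a negative value there. In that comparison 1 paralog was called lower without replicate a of GFP at 2 mM or replicate b of GFP at 11 mM. The same count was found without replicate a or replicate c of ChREBPβ at 2 mM.

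Rpl7l1, a nucleolar relative of Rpl7, went the other way. It was at 73.6, 77.2 and 70.7 CPM with GFP and 116, 115 and 119 with the ChREBPβ label at 2 mM, and at 99.9, 94.9 and 96.6 CPM against 119, 132 and 128 CPM at 11 mM. No groups overlapped except the libraries labelled ChREBPβ at 2 and 11 mM. Its log2 fold change was 0.66 (edgeR, adjusted p = 3.61e-10; SE 0.05) at 2 mM and 0.38 (edgeR, adjusted p = 1.15e-06; SE 0.05) at 11 mM, against 0.52 and 0.30 for Rpl7. Rps27l, a p53 target gene close to Rps27, was at 43.9, 42 and 43.4 CPM with GFP and 63.6, 66.5 and 66.1 with the ChREBPβ label at 2 mM. It rose by 0.60 at 2 mM and 0.48 at 11 mM, and Rps27 by 0.27 and 0.36. The call of Rps27 at 2 mM was lost without replicate a of GFP (0.20) or replicate b of ChREBPβ (0.25), and with upper quartile factors (0.21) or library totals (0.17); that at 11 mM was lost without replicate b of GFP (0.25). Rpl22l1, the paralog of Rpl22, rose by 0.40 at 2 mM and had a value of 0.15 at 11 mM. Its standard partner had 0 counts. Rpl36al was at 94.9, 97.3 and 103 CPM with GFP and 101, 101 and 103 with the ChREBPβ label at 2 mM, overlapping values with a log2 fold change of 0.05, while Rpl36a rose by 0.37. The log2 ratio of Rpl36al to Rpl36a differed by -0.32 at 2 mM (exact two-sided permutation test, n = 3, p = 0.1, the smallest possible).

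**Figure D3:**
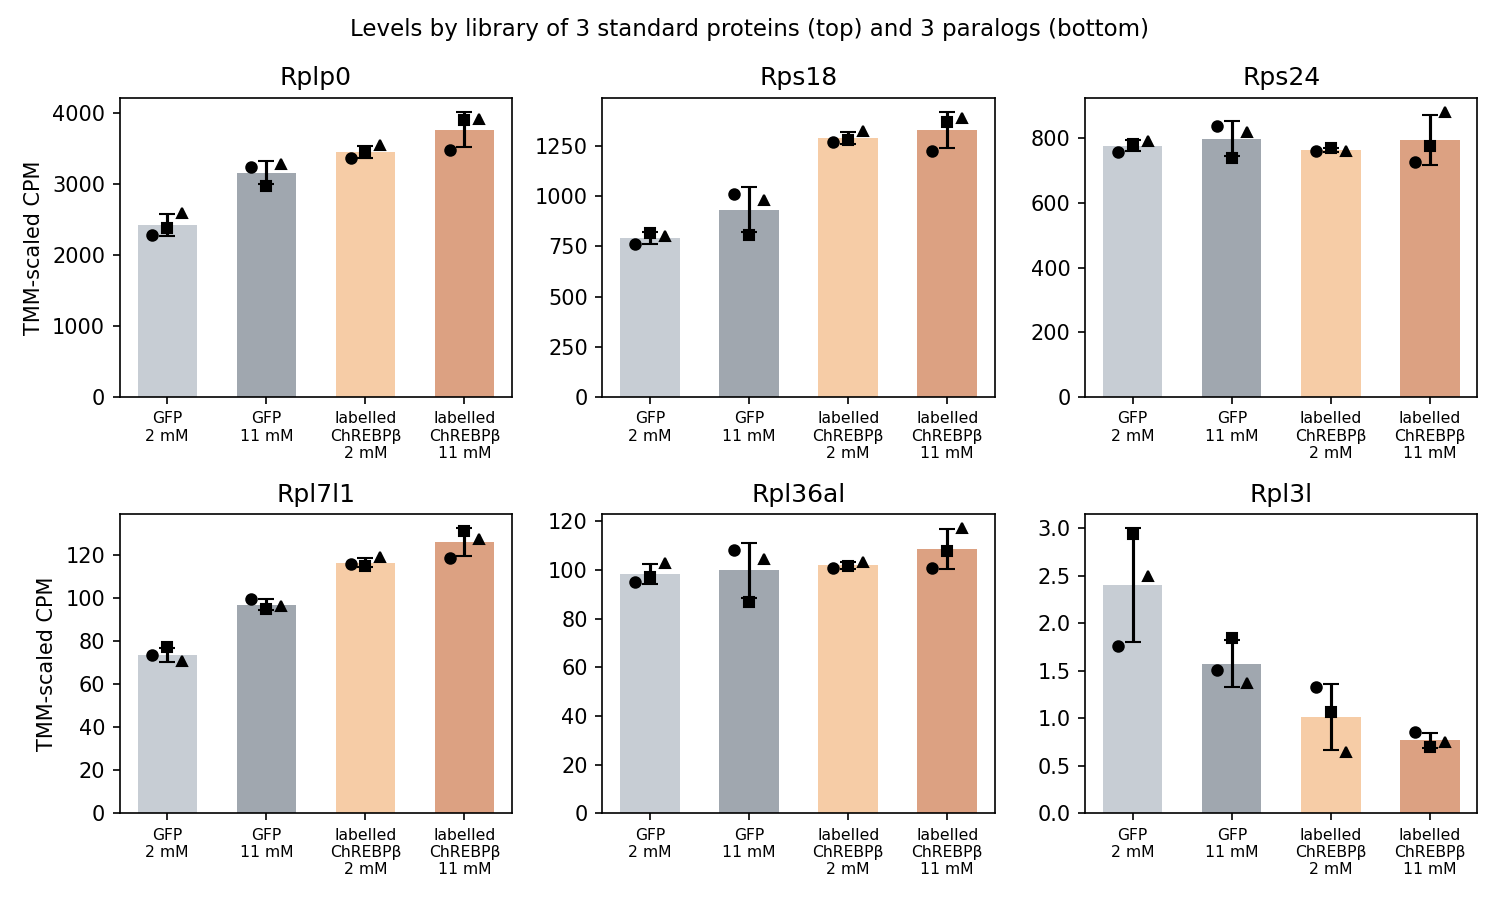
TMM-scaled CPM of 3 standard proteins (Rplp0, Rps18 and Rps24, top) and 3 paralogs (Rpl7l1, Rpl36al and Rpl3l, bottom) in each library; bars are group means, error bars the SD of 3 libraries, and circles, squares and triangles replicates a, b and c. Rpl3l lies at 1.76 to 2.94 CPM in GFP cells at 2 mM and under 1 CPM in each library labelled ChREBPβ at 11 mM.

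The plot of levels by library also shows how steady Rps24 and Rpl36al were beside Rplp0 and Rps18. Of the 8 members with -ps names, 5 were called higher at 2 mM and 3 at 11 mM, against 21% and 14.3% of all genes. The 5 became 2 without replicate b or without replicate c of ChREBPβ at 2 mM, where Rpl26-ps2 (0.34 and 0.34), Rpl34-ps1 (0.29 and 0.28) and Rps2-ps1 (0.97 and 0.85) were no longer called although their log2 fold changes were about as large. Rpl26-ps2 lost its call in 8 of the 12 fits without a single library. The 3 at 11 mM became 1 without replicate b of GFP at 11 mM and 2 without its replicate a or c, or without replicate b or c of ChREBPβ at 11 mM; without replicate a of ChREBPβ at 11 mM it was 4 of the 7 tested. Rpl6-ps1, with the largest increase of those of at least 5 CPM, was at 45.6, 45.2 and 25.6 CPM with GFP and 62.5, 63.9 and 63.6 with the ChREBPβ label at 2 mM, a log2 fold change of 0.71 (edgeR, adjusted p = 0.000134; SE 0.13). Replicate c of GFP at 2 mM was the low one, and without it the value was 0.48. Of the 8 members with other added numbers, 3 were called higher at 2 mM and 1 at 11 mM (12.5%, against 14.3% of all genes), or 2 without replicate c of GFP or of ChREBPβ at 11 mM. Counts of such copies can hold reads of the standard gene, and the 2 cannot be told apart here. Rps19bp1 rose by 0.34 at 2 mM. Of 14 members under 5 CPM, 3 were called higher (21.4%) and 1 lower at 2 mM, against 69 higher and 0 lower of the 79 at or above 5 CPM. The 3, Rps19, Rps2-ps1 and Rpl26-ps2, all lost their calls without replicate c of ChREBPβ at 2 mM.

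Rack1 and Fau are ribosomal proteins whose names fall outside the rule. Rack1, a scaffold on the small subunit, rose by 0.43 at 2 mM (adjusted p = 2.94e-07 in edgeR). Fau had at most 0.0961 CPM in a library and was not tested.

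Other genes of the pathway were read from lists. Of 27 genes of ribosome assembly and RNA polymerase I, 24 were called higher at 2 mM and 6 at 11 mM with the ChREBPβ label, and 21 with glucose in GFP-treated cells, with medians of 0.52, 0.20 and 0.45. All genes had shares of 21%, 14.3% and 10.2% in these comparisons, so the 22.2% of the list at 11 mM was nearer to them than the 88.9% at 2 mM. In the interaction 16 of the 27 were lower, against 4.74% of all genes, with a median of -0.34; the values were 5 of 93 and -0.13 for the ribosomal proteins. Polr1b, a subunit of RNA polymerase I, had the largest increase at 2 mM, of 0.99, and Ncl, a nucleolar RNA-binding protein, rose by 0.81. The promoters of this list held a pyrimidine run in 3 of 25 cases (12%) and CACGTG in 8 of 25 (32%), against 70.8% and 6.15% for ribosomal proteins.

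Of 17 tested genes among other mRNAs known to carry a TOP tract, 12 were called higher at 2 mM, 5 at 11 mM and 4 with glucose in GFP-treated cells, against 21%, 14.3% and 10.2% of all genes, and their medians were 0.32, 0.20 and 0.19. Npm1, a chaperone of ribosome assembly, rose by 0.79 at 2 mM and Eef2, the elongation factor of translocation, by 0.51. Of 14 tested genes of mTORC1 and the control of TOP mRNAs, 3 were called higher and 1 lower at 2 mM, where the share called higher, 21.4%, was near that of all genes. Eif4ebp2, a repressor of cap-dependent translation, rose by 0.71, Larp1 by 0.56, and Sesn2, an inhibitor of mTORC1, fell by 0.51 on the log2 scale. Of 73 mitochondrial ribosomal proteins, 17 were called higher at 2 mM and 0 lower, with a median of 0.16, and 8 at 11 mM, with a median of 0.14. The share of 23.3% at 2 mM was near that of all genes, and lay below the 77.4% of the cytosolic members.

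**Figure D4:**
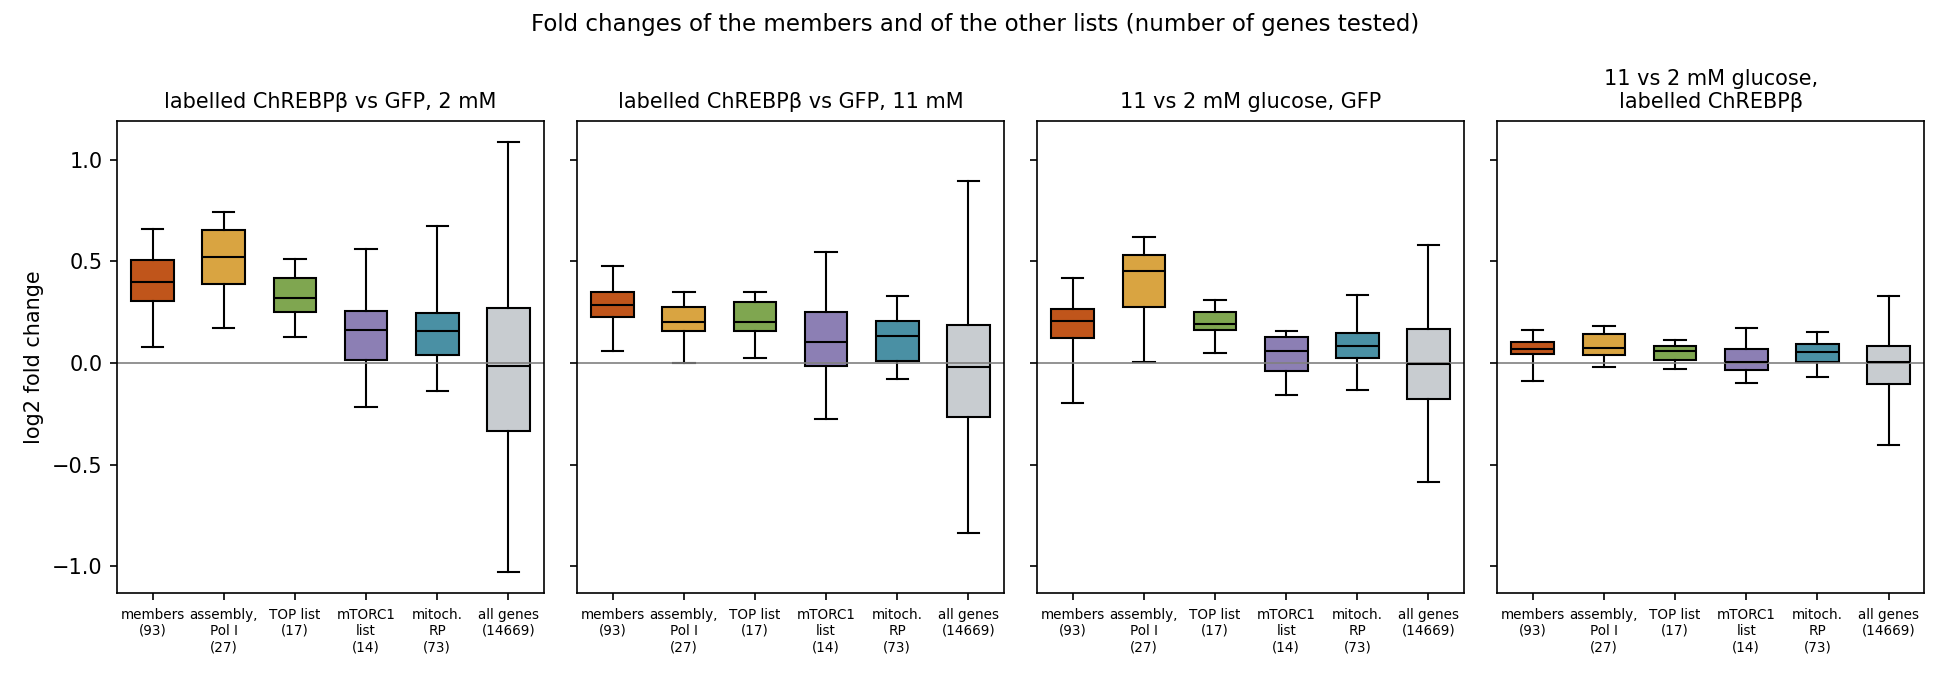
Log2 fold changes of the 93 members, of the lists of ribosome assembly, TOP mRNAs, mTORC1 and mitochondrial ribosomal proteins, and of all 14669 genes tested in the 4 comparisons between groups. Boxes hold the range between the quartiles with the median as a line, and whiskers reach from the 5th to the 95th percentile; the members' medians are 0.40, 0.29, 0.21 and 0.07.

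The plot of fold changes by list shows the box of the members above 0 in each comparison, and narrower than that of all genes. Markers of cell types were summed by library. The 10 β-cell markers were all in the table. Chga had the highest mean CPM of them over the 12 libraries, while Ins1 had the higher CPM in each GFP library. Ins1 was at 10817, 11554 and 12660 CPM with GFP and 4224, 4365 and 4338 CPM with the ChREBPβ label at 2 mM. The sum of the markers had a median of 33760 CPM with GFP at 2 mM and 28020 with GFP at 11 mM. With ChREBPβ it was 17080 at 2 mM and 16710 at 11 mM. At 2 mM, 9 of the 10 markers were called lower and 1 higher, the opposite direction from the ribosomal proteins. The 6 other islet cell markers, led by Gcg, summed to medians of 1618, 1649, 432.6 and 483 CPM in the same order, with 4 of them under 1 CPM. Of 5 fibroblast and stromal markers, 4 were in the table, 2 of them at 0. Their sum was 8.81 CPM or less, mostly Pdgfra. The 4 leukocyte markers summed to 1.36 CPM or less. At 2 mM the 1 stromal marker tested was called lower (-1.12) and the 1 leukocyte marker tested was called higher (1.04). At 11 mM neither was called (-0.13 and 0.75). The part of these changes in the ribosomal protein result was not tested.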

How the data were processed

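RNA of INS-1 cells was amplified and sequenced, and the authors deposited raw read counts per gene for the 12 libraries. The submitters' processing notes name the build Rnor_6.0 and edgeR; aligner and counter are not given in the sources used here. The table also holds 4 columns of the authors' group means, not used, and the number of other columns of single samples was 0. One row without a gene name, at most 0.00601% of a library, was left out, and no column of the authors' own comparisons was used.

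Members and lists were chosen with earlier results of these data known. Counts were filtered with edgeR's filterByExpr, scaled with TMM factors and fitted for all 12 libraries in a single quasi-likelihood model of the 4 groups, with contrasts adjusted by Benjamini-Hochberg over all 14669 genes. A gene was called when its adjusted p was below 0.05 and its change reached 1.2-fold. A standard error is the log2 fold change divided by the square root of F. Versions were R 4.3.3, edgeR 4.0.16, DESeq2 1.42.0, Python 3.11.15 and matplotlib 3.10.9. The steps were tested on simulated data. RNA was amplified and reads carry no molecular identifiers, so limits drawn from counts cover counting error only. Every pair of libraries of a group differed by more than sampling noise (chi-square per degree of freedom 3.06 to 16.6).

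Genes named in the text are, in each comparison, the 3 called members with the largest increase and decrease among those with a mean of at least 5 CPM, the 5 members with the highest mean, members with a distinct role, paralogs with their standard proteins, members that are not standard, the top 2 of each other list in each direction, and label checks. Others were named after their values were seen. Promoters are RefSeq entries of GRCr8, matched by symbol, while counts use another build. Alternatives were RLE and upper quartile factors, library totals, TMM factors without the members, DESeq2, other filters and fold minima, a replicate block, fits of the compared groups, leaving out each library, and, added after seeing the data, thinning, subsets of members and leaving out 2 libraries.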

Additional observations from a re-analysis of the deposited data

Results flagged for a closer look

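These results were taken because edgeR's test of the interaction found that the change with the ChREBPβ label differed between 11 and 2 mM glucose; each value is the change at 11 mM minus that at 2 mM, on the log2 scale, with the Benjamini-Hochberg adjusted p of edgeR. Among the members it was -0.29 for Rps3 (adjusted p = 0.0158), -0.48 for Rpl8 (adjusted p = 0.00318), -0.28 for Rpl7l1 (adjusted p = 0.0104), -0.33 for Rpl37 (adjusted p = 0.0390) and -0.58 for Rpl31l4 (adjusted p = 0.0372). In each of the 5 the level in GFP-treated cells was higher at 11 than at 2 mM. The interaction is also the change with glucose under the ChREBPβ label minus that in GFP-treated cells. The rise in GFP-treated cells is thus part of the values that picked the 5 and is not a separate result. Among genes of ribosome assembly and translation the difference was -0.38 for Npm1 (adjusted p = 0.000402), -0.65 for Polr1b (adjusted p = 4.24e-06) and -0.39 for Ncl (adjusted p = 0.000364). For the genes read as a check of the labels it was -3.20 for Txnip (adjusted p = 7.35e-17), -0.61 for Pklr (adjusted p = 4.58e-06) and -1.05 for Myc (adjusted p = 3.47e-09). The β-cell markers Pdx1, Chgb and Pcsk1 had positive differences, 0.28 for Pdx1 (adjusted p = 0.00621), 0.29 for Chgb (adjusted p = 0.00176) and 0.32 for Pcsk1 (adjusted p = 0.0463). These markers were lower with the ChREBPβ label at both glucose levels, and their falls were smaller at 11 mM. Pdx1 was at 170, 155 and 161 CPM with GFP and 91.6, 95 and 96.3 CPM with the label at 11 mM. Myc was higher with the label at both glucose levels, at 87.7, 90.2 and 95.2 CPM against 122, 124 and 124 CPM at 11 mM. On leaving out single libraries, calls were lost without 9 of the 12 for Rpl31l4, 8 for Rpl37, 4 for Rps3, 2 for Rpl7l1, 9 for Pcsk1, 3 for Pdx1 and 1 for Chgb, with differences of the same sign, and Rpl8, Npm1, Polr1b, Ncl, Txnip, Pklr and Myc kept theirs. Rps3, Rpl7l1 and Rpl37 lost their calls with upper quartile factors. Rpl31l4 also lost its call with the replicate block, and Rpl31l4, Rpl37, Rpl7l1 and Pdx1 lost theirs after thinning.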

How the results depend on the processing

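The direction of the members' median log2 fold change was kept under every alternative run, at 0.30 to 0.45 for ChREBPβ at 2 mM, 0.20 to 0.35 at 11 mM, 0.17 to 0.27 for glucose in GFP-treated cells, 0.04 to 0.13 for glucose with the ChREBPβ label and -0.19 to -0.08 for the interaction. Counts of called members moved more. With no minimum fold change 74 members were higher at 11 mM, 53 with glucose in GFP-treated cells, 1 with glucose under the ChREBPβ label, and 11 were lower in the interaction; with a minimum of 1.5-fold the counts were 10 higher at 2 mM, 1 at 11 mM, 0 with glucose in GFP-treated cells and 0 lower in the interaction. Library totals gave 20 higher at 11 mM. With glucose in GFP-treated cells 1 member was called lower, in place of 0, with RLE factors, upper quartile factors, library totals, DESeq2, no filter on low counts and a fit of the compared groups only. Lower in the interaction were 2 with upper quartile factors, 2 after thinning to the smallest total and 3 of the standard names. Members of at least 5 CPM gave 0 lower at 2 mM and 0 at 11 mM, as did the standard names, since neither set holds Rpl3l. The summed share of the standard names was 4.61% for ChREBPβ at 2 mM. Leaving out single libraries gave 13 to 50 members higher and 0 to 1 lower with glucose in GFP-treated cells, 22 to 63 higher for ChREBPβ at 11 mM, 67 to 76 at 2 mM, and 1 to 16 lower in the interaction. Leaving out both replicate b of GFP at 11 mM and replicate a of ChREBPβ at 11 mM gave 46 higher for ChREBPβ at 11 mM, 50 higher and 1 lower with glucose in GFP-treated cells, and 1 higher with glucose under the ChREBPβ label. Apart from the sets that lack Rpl3l, the cause of these changes was not tested. Libraries were not paired by letter in the fit, since of 18 correlations of deviations from the group means 0 were over 0.1 (-0.114 to 0.0644). Own letters correlated best in 11 of 18, among them 9 of the 9 that do not involve GFP at 11 mM, so a weak pairing was not excluded. With the replicate block 72 members were higher at 2 mM, 50 at 11 mM and 21 with glucose in GFP-treated cells, and 5 were lower in the interaction, where Rpl31l4 was no longer called (-0.58) and Rpsa newly was (-0.26). For the 64 named genes, 7564 values were on the same side of the threshold, 218 were no longer past it, 140 were newly past it and 0 were reversed. Most members under 5 CPM had wider standard errors, and whether depth accounts for this was not tested.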

Other observations

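Within groups, the median coefficient of variation of the 79 members of at least 5 CPM was 5.09% with GFP at 2 mM, 7.84% with GFP at 11 mM, 1.73% with ChREBPβ at 2 mM and 6.68% with ChREBPβ at 11 mM. The group with the tightest members thus includes the library of 28595982 counts beside those of 57726412 and 57313995. The members also lay apart in single libraries without a change of groups: relative to the mean of GFP at 2 mM, the median over these members of the log2 difference was 0.08 in replicate b of GFP at 11 mM against 0.28 in both others, and 0.37 in replicate a of ChREBPβ at 11 mM against 0.54 and 0.56.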
